A study of Mus musculus with 8 samples.

Results

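The proneural and neuronal differentiation factors of the basic helix-loop-helix (bHLH) family described here are Neurog1, Neurog2, Neurod1, Neurod2, Neurod4, Nhlh1 and Nhlh2. They were taken by gene symbol from the annotation of the array, which gave 8 probes for the 7 genes: 1 probe for each gene and a second for Neurog2. The array names 16593 genes in all. The samples were dorsal root ganglia, the clusters of sensory neurons beside the spinal cord, from mouse embryos at E12.5: 4 samples were wild-type and 4 were mutant, with the label Erk1/2CKO(Wnt1). That name denotes conditional loss of the kinases ERK1 and ERK2 through a Wnt1 driver, which is active in the neural crest, from which neurons and glia of the ganglia arise. The labels spell out neither the alleles nor what the wild-type embryos carried, and the deleted genes themselves were not analysed here, so the labels were not checked on them. The embryos came from 3 litters. The labels tie no sample to a litter and do not say if embryos were pooled, so the p-values measure the spread between these samples, some of which share a litter. Total RNA was biotin-labelled and read on Illumina bead arrays that lay on 1 slide, with the wild-type samples in the first 4 positions and the mutants in the last 4, so position and genotype cannot be told apart.

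Proneural bHLH proteins bind short DNA motifs called E-boxes, with the sequence CANNTG, as dimers with E proteins. In the neural crest, Neurog2 and then Neurog1 start sensory neurogenesis in dividing precursors, and both genes are shut off as the cells become neurons. Neurod1 and Neurod4 are switched on by neurogenins as cells leave the cell cycle, Nhlh1 and Nhlh2 follow in young neurons, and Neurod2 is best known in neurons of the brain. Notch signalling through Hes proteins, and Id proteins, which capture E proteins, hold this sequence back. The comparison sets mutant against wild-type ganglia on the genes of this sequence, array by array.

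The sequence just before the start of 3 of these genes is shown because the results below turn on them: Neurod1 and Neurod2, whose mutant arrays all lay above the wild-type arrays, and Neurog2, whose level split the wild-type arrays. Each window holds the 250 bases before the start, read 5′ to 3′ on the gene's strand from RefSeq (GRCm38.p6), with E-boxes in capitals. The Neurog2 window is chr3:127632886-127633135 on the plus strand, that of Neurod1 chr2:79456637-79456886 on the minus strand and that of Neurod2 chr11:98329646-98329895 on the minus strand.
Neurog2: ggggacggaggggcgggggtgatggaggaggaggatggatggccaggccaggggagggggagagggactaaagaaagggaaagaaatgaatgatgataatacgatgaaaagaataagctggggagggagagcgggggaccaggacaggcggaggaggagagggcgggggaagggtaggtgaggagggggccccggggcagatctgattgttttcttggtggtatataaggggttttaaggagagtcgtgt
Neurod1: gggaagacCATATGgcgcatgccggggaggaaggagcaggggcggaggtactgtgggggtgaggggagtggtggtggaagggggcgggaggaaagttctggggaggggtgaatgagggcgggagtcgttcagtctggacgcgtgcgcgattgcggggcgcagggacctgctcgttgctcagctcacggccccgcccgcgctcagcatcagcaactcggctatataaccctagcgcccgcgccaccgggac
Neurod2: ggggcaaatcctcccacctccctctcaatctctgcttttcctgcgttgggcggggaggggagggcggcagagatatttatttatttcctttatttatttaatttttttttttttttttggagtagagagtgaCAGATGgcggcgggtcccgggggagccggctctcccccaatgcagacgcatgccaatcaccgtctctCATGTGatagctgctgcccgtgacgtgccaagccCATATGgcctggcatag
CANNTG, which reads the same way on both strands as a pattern, occurred 3 times before Neurod2, 2 times before Nhlh2, once before Neurod1 and once before Nhlh1, and 0 times before Neurog1, Neurog2 and both annotated starts of Neurod4. It occurred in 66.2% of all 32851 windows of this length, so its presence does not set the members apart. The E-box letters CAGATG (or CATCTG on the other strand), which are among the CANNTG forms and are a form that neurogenin and NeuroD dimers bind, occurred once each before Neurod2, Nhlh1 and Nhlh2, against 14.4% of all windows. CAGCTG, another CANNTG form, occurred before 0 of the 7 genes and in 13% of all windows. A match of letters is a description and shows no binding, and its absence says only that the letters are not in that window.

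The arrays split within the wild-type group. Across genes, which are not independent, r was 0.994 for wild-type replicates 1 with 2, 0.993 for replicates 3 with 4, and at most 0.981 for the mixed pairs. These correlations were taken only among wild-type arrays, so a like split among the mutant arrays was not examined in this way. Median intensities ran from 144 to 159 in wild-type and from 138 to 147 in mutant arrays. Values below are on the log2 scale after background correction and quantile normalization unless an intensity is named. A probe was tested where its mean over the 8 arrays lay above the median of all probes, a level of 6.71. The files hold no detection calls, so this level stands in for a background limit. Defining sensory neuron genes were bright on every array, Isl1 between 14.1 and 14.6 and Pou4f1 between 11.9 and 12.4, while the sympathetic genes Phox2a, Dbh and Hand2 lay under the filter level on all 8. Other sympathetic markers were present: of the 3 tested 1 fell (against 1.11% of all genes), Ddc, which encodes a decarboxylase of amine synthesis (-0.56, limma adjusted p = 0.0262). Mutant arrays lay wholly below wild-type arrays for 2 of the 3, Ddc and Gata2, against 5.65% of all genes. Th, the rate-limiting enzyme of catecholamine synthesis, was bright and split the wild-type arrays, at 9.63, 9.77, 7.24 and 7.46 against 9.66 to 10.44 in the mutant (1.43, adjusted p = 0.207).

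Of the 7 members, 5 lay above the filter level (Neurog1, Neurog2, Neurod1, Neurod2 and Neurod4), and 0 of these 5 passed the test, against 2.51% of all 8935 genes tested (224 genes; limma, Benjamini-Hochberg adjusted p under 0.05). By the unadjusted limma p, 3 of the 5 (Neurod1, Neurog1 and Neurod2) lay under 0.05, all higher in the mutant, as did 18.1% of all genes in either direction and 9.51% in that direction. The mutant arrays lay wholly above the wild-type arrays for 2 of the 5, Neurod1 and Neurod2, against 6.3% of all genes, and wholly below them for 0 of the 5, against 5.65%. The median difference of the 5 was 0.19, beside 0.0018 over all genes, and the mean of each of the 5 lay above the filter level in both groups. With arrays scaled to their medians only, 0 of the 5 were again called, against 2.66% of all genes. In bulk samples fewer cells of a type and less RNA per cell cannot be told apart.

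**Figure D1:**
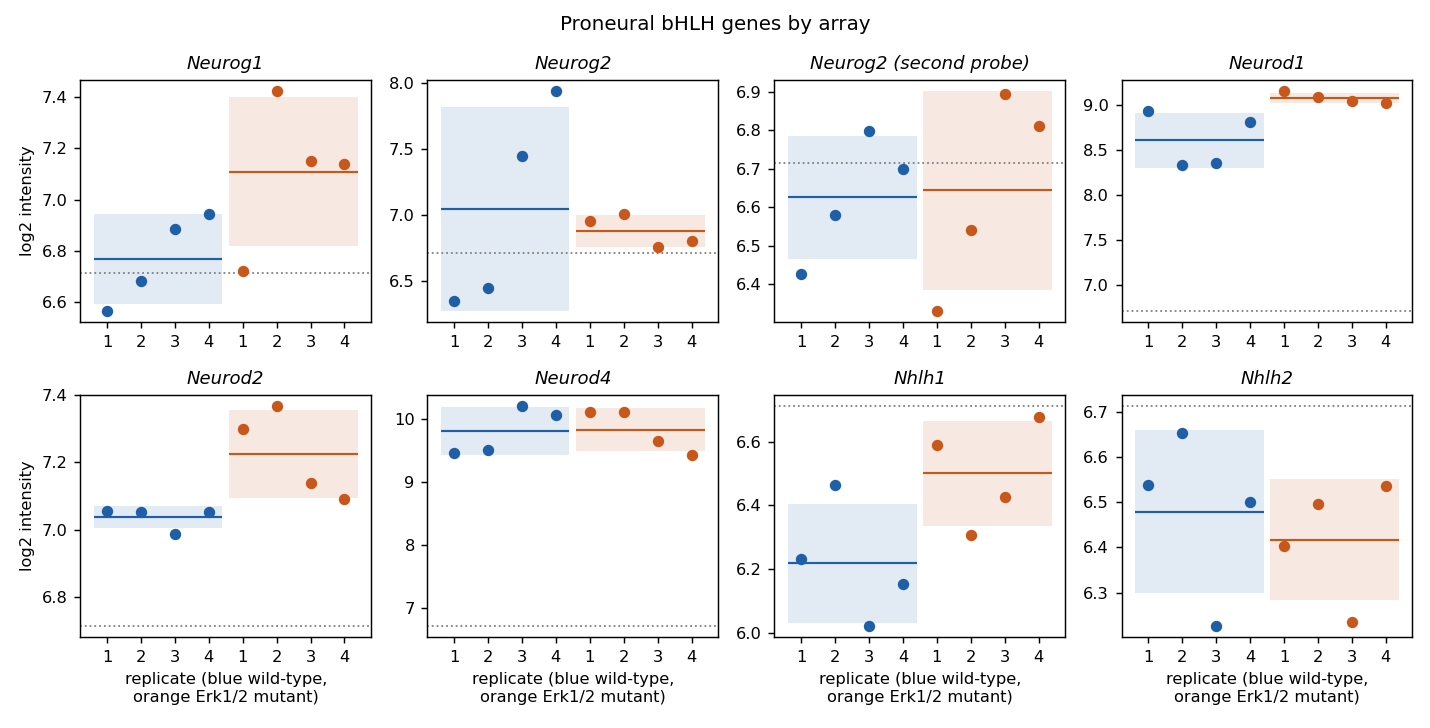
The 8 probes of the 7 genes on each array, as log2 intensity after normalization, with wild-type in blue and Erk1/2 mutant in orange. Each point is 1 array, the line is the group mean, the band is 1 SD (n = 4) and the dotted line is the filter level of 6.71. The mutant points of Neurod1 and Neurod2 all lie above the wild-type points, and Neurog2 is high on wild-type replicates 3 and 4; vertical axes differ between panels.

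Neurog2, the earliest of these factors in the sensory lineage, stood at 6.35, 6.45, 7.45 and 7.94 on wild-type replicates 1 to 4 and at 6.96, 7.01, 6.76 and 6.80 on mutant replicates 1 to 4. Raw intensities gave the same order, at 128, 136, 206 and 306 in the wild-type against 140 to 165 in the mutants. All 4 mutant arrays lay in the gap between wild-type replicates 1 and 2 and wild-type replicates 3 and 4. The mean difference was -0.17 ± 0.31 (SE, n = 4 per group; 95% interval -0.86 to 0.53; limma adjusted p = 0.824), an average over 2 opposite distances. With wild-type replicates 3 and 4 left out it turned to 0.48 (adjusted p = 0.0513, with 2.37% of all genes called), and with replicates 1 and 2 left out it was -0.81 and passed (adjusted p = 0.00844, with 13.6% of all genes called). Without wild-type replicate 4 alone it was 0.13 (adjusted p = 0.853). The fits without a pair keep 2 wild-type arrays, and the pairs follow the split that Neurog2 itself shows. The sign in each of those fits was set by that choice, so the call is no separate support. The second Neurog2 probe, under the filter level on average, stood at 6.43, 6.58, 6.80 and 6.70 on wild-type replicates 1 to 4. Replicates 3 and 4 were the higher pair here too, but by less. Its mutant arrays, at 6.33, 6.54, 6.89 and 6.81 on replicates 1 to 4, spanned the wild-type range and did not lie in a gap. The difference was 0.019.

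Neurog1, which follows Neurog2 and specifies the later wave of sensory neurons, stood at 6.56, 6.68, 6.89 and 6.94 on wild-type replicates 1 to 4 and at 6.72, 7.42, 7.15 and 7.14 on mutant replicates 1 to 4. Mutant replicates 2, 3 and 4 lay above all wild-type arrays, while mutant replicate 1 lay among them. The difference was 0.34 ± 0.15 (SE, n = 4 per group; 95% interval 0.012 to 0.67; limma adjusted p = 0.258; exact permutation p = 0.0857). Only 2 of 4 wild-type arrays reached the filter level. The difference was 0.49 with wild-type replicates 3 and 4 left out and 0.19 with replicates 1 and 2 left out, with no call in either (adjusted p = 0.183 and 0.491).

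Neurod1, which drives the exit from the cell cycle into neuronal differentiation, stood at 8.93, 8.33, 8.35 and 8.80 on wild-type replicates 1 to 4 and at 9.15, 9.08, 9.04 and 9.02 on mutant replicates 1 to 4. All 4 mutant arrays lay above all 4 wild-type arrays, and they lay close together (SD 0.059, against 0.31 in the wild-type). The mutant was higher by 0.47 ± 0.14 (SE, n = 4 per group; 95% interval 0.16 to 0.78), which did not pass over all genes (limma adjusted p = 0.111). The exact permutation test of this single value, two-sided, gave p = 0.0286, the smallest that 4 against 4 arrays can give. The separation depended on scaling: in raw intensity wild-type replicate 1 was the brightest array at 595, against 510 to 576 in the mutants, and under median scaling the groups overlapped, with a difference of 0.40. The difference was 0.44 (adjusted p = 0.175) with wild-type replicates 3 and 4 left out. With replicates 1 and 2 left out it was 0.50, past the threshold at adjusted p = 0.0370, with 13.6% of all genes called. That fit leaves out the wild-type array nearest the mutants (8.93) and the lowest (8.33).

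Neurod4, which acts beside the neurogenins in committed precursors, stood at 9.46, 9.51, 10.21 and 10.06 on wild-type replicates 1 to 4 and at 10.11, 10.11, 9.66 and 9.42 on mutant replicates 1 to 4. Both groups held 2 high and 2 low arrays over the same range. The mean difference was 0.014 ± 0.21 (SE, n = 4 per group; limma adjusted p = 0.984), -0.085 with median scaling, and its 95% interval of -0.45 to 0.48 leaves room for a change of either sign. The difference was 0.34 (adjusted p = 0.396) with wild-type replicates 3 and 4 left out and -0.31 (adjusted p = 0.333) with replicates 1 and 2 left out.

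Neurod2, a NeuroD factor of differentiated neurons, was dim but above the filter level on all 8 arrays. It stood at 7.06, 7.05, 6.99 and 7.05 on the wild-type arrays and at 7.30, 7.37, 7.14 and 7.09 on the mutant arrays. The groups did not overlap, also with median scaling, but the lowest mutant array lay only just above the highest wild-type array. The difference was 0.19 ± 0.083 (SE, n = 4 per group; 95% interval 0.0026 to 0.37; limma adjusted p = 0.270; exact permutation p = 0.0286). In raw intensity the groups overlapped, at 164 to 188 in the wild-type and 170 to 200 in the mutant.

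Nhlh1 and Nhlh2, bHLH factors of newly born neurons, lay under the filter level on all 8 arrays and were tested only in the fit without a filter, in which 1.32% of 16593 genes passed. Nhlh1 stood at 6.23, 6.47, 6.02 and 6.15 in the wild-type and at 6.59, 6.31, 6.43 and 6.68 in the mutant. The groups overlapped, and the mutant was higher by 0.28 ± 0.11 (SE, n = 4 per group), which did not pass (limma adjusted p = 0.308). Nhlh2 ran from 6.23 to 6.65 in the wild-type and from 6.23 to 6.54 in the mutant, with a difference of -0.062 (limma adjusted p = 0.883). A change of dim probes is understated by the background offset, so these values do not show that either gene was unchanged.

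**Figure D2:**
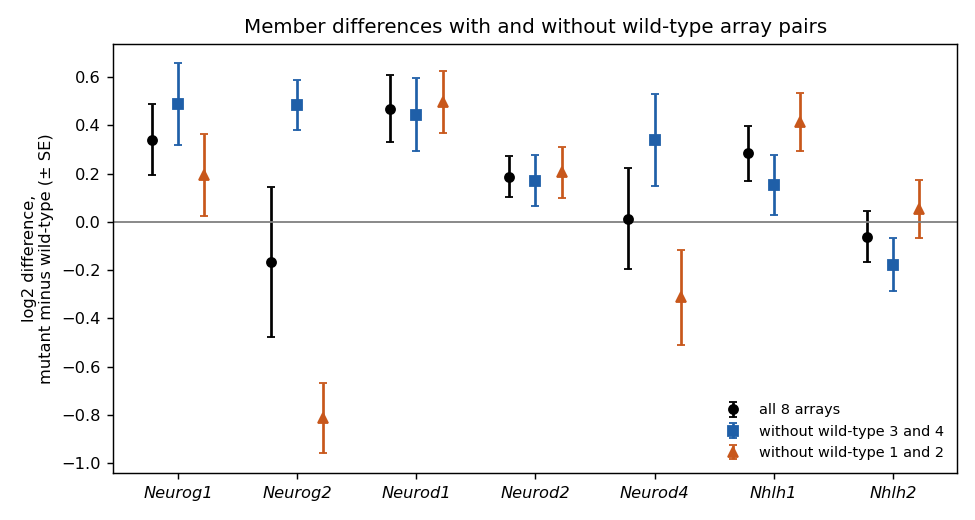
Log2 difference, mutant minus wild-type, of each of the 7 genes (brightest probe), with its SE, from all 8 arrays (black circles), with wild-type replicates 3 and 4 left out (blue squares) and without wild-type replicates 1 and 2 (orange triangles). Neurod1, Neurod2, Neurog1 and Nhlh1 are positive in all 3 fits, while Neurog2 runs from 0.48 to -0.81 and Neurod4 from 0.34 to -0.31. Nhlh1 and Nhlh2 are from fits without a filter.

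Other measures moved with the split in the wild-type group. The mean level of 22 tested cell cycle genes, relative to each gene's mean over the 8 arrays, was 0.76 for wild-type replicate 3 and 0.62 for replicate 4, but -0.14 and -0.15 for replicates 1 and 2, with mutant arrays between -0.33 and -0.20. Of these 22 genes 1 fell (against 1.11% of all genes), the mitotic kinase gene Plk1. It stood at 9.79 to 10.95 in the wild-type and at 6.68, 6.62, 9.52 and 6.59 in the mutant (-2.99, limma adjusted p = 0.0354). Differences were positive for 0 of the 22, against 50.5% of all genes. Mutant arrays lay wholly below wild-type arrays for 3 of the 22, against 5.65% of all genes. The median difference of the cell cycle list was -0.42. Erythroid markers (9 tested, 0 called, 3 of 12 probes under the filter level) stood at 0.72 for replicate 3 and 0.31 for replicate 4, against -0.32 to -0.071 on the other 6 arrays. Sensory neuron markers (15 tested) split the opposite way, at 0.13 and 0.072 for replicates 1 and 2 and -0.30 and -0.23 for replicates 3 and 4, with mutant arrays from -0.049 to 0.28. So did 4 tested muscle markers, at 0.41, 0.27, -0.28 and -0.32, but these also split the mutant arrays, at -0.52, -0.79, 0.48 and 0.76 on mutant replicates 1 to 4. With the cell cycle level as a covariate the Neurog2 difference turned to 0.64 (limma adjusted p = 0.0805) and that of Neurod4 was 0.47 (adjusted p = 0.181), and with the erythroid level they were 0.22 and 0.24 (adjusted p = 0.679 and 0.560). The Neurod1 difference was 0.42 and 0.44 in these fits. Both covariates were measured on the same arrays, and the part of either in the results was not tested. The cell cycle level of every mutant array lay below that of every wild-type array, so a fit with that covariate cannot fully separate it from genotype.

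The spinal cord lies beside the ganglia and expresses several of the same bHLH genes. Of 19 spinal cord markers with a probe, 17 lay under the filter level, and of the tested ones 0 of 2 passed. Their summed intensity was 3315 on wild-type replicate 4, against 2589 to 2612 for the other wild-type samples and 2479 to 2679 for the mutants. On that array the interneuron genes Dbx1, Lhx1 and Lhx5 stood at 7.74, 6.88 and 6.91, against at most 6.50, 6.27 and 6.45 on the other 7. The bHLH gene Neurog3 stood at 7.49, against at most 6.41. These genes were named for being high on that array, and not all cord markers were. The tested marker Irx3 was highest there too (8.69, others 7.61 to 8.47), but Sox1 was lowest there (6.18, others 6.26 to 6.58). Wild-type replicate 4 was also the array with the highest Neurog2 level. Wild-type replicate 3, the array with the next highest Neurog2, stood at 2591 for the summed markers, 6.26 for Dbx1 and 6.12 for Lhx1, within the range of the others, but was the highest array for Nkx6-1, a homeodomain gene of ventral cord progenitors (8.27, others 7.16 to 8.19). The defining cord genes Olig2, Pax6 and Nkx2-2 were under the filter level on all 8 arrays; the part of spinal cord RNA in the Neurog2 level was not tested.

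**Figure D3:**
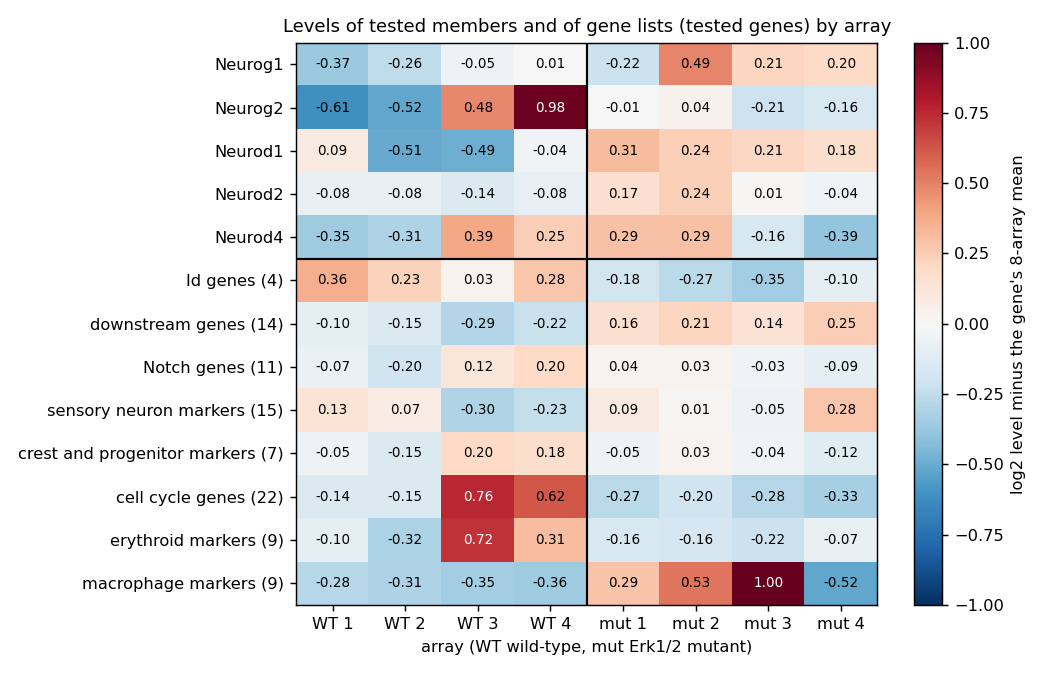
Levels on each of the 8 arrays, as log2 values minus each gene's mean over the arrays, for the 5 tested members (above the line) and for the mean of the tested genes of 8 lists (below it, number of genes in brackets). Red is high and blue is low. Neurog2 and the cell cycle and erythroid lists are high on wild-type replicates 3 and 4, and the list of downstream genes is above 0 on the mutant arrays and below 0 on the wild-type arrays.

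Genes that neurogenin and NeuroD factors switch on, or that act beside them, were higher in the mutant as counts but mostly did not pass singly. Of 18 listed genes 14 were tested, and 1 rose (against 1.4% of all genes), 0 fell and 13 did not pass. Differences were positive for 13 of the 14, against 50.5% of all genes, and the median difference was 0.39, against 0.0018 over all genes. That median was 0.25 with wild-type replicates 3 and 4 left out and 0.19 with the cell cycle level as a covariate. Mutant arrays lay wholly above wild-type arrays for 8 of the 14, against 6.3% of all genes. The list was chosen with earlier results of these data known.

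The gene that rose was Myt1, a zinc finger factor that in Xenopus promotes neuronal fate together with a neurogenin. It stood at 11.85, 11.87, 11.39 and 11.57 on wild-type replicates 1 to 4 and at 12.17, 12.27, 12.19 and 12.15 on the mutant arrays. The difference was 0.52 ± 0.11 (SE, n = 4 per group; limma adjusted p = 0.0421). The call was lost when wild-type replicates 3 and 4 were both left out (0.33, adjusted p = 0.0891), when either of them or any single mutant array was left out (adjusted p = 0.0725 to 0.127), with median scaling (0.40, adjusted p = 0.126) and with the cell cycle level as a covariate (0.28, adjusted p = 0.139).

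The other 7 genes of the list with separated arrays, named after their values were seen, were Insm1, St18, Mfng, Ebf2, Ebf3, Srrm4 and Dcx. Insm1, a zinc finger factor of newly committed neuronal cells, stood at 10.73, 10.55, 11.30 and 11.13 in the wild-type and at 11.51, 11.61, 11.57 and 11.58 in the mutant. Its difference of 0.64 ± 0.15 missed the threshold on all arrays (limma adjusted p = 0.0574, n = 4 per group). It passed with wild-type replicates 3 and 4 left out (0.92, adjusted p = 0.00261) and with only replicate 3 left out (0.76, adjusted p = 0.0247). Those were the wild-type arrays nearest the mutants, so the larger differences follow from that choice and are no separate support. With replicates 1 and 2 left out Insm1 also passed (0.35, adjusted p = 0.0359, with 13.6% of all genes called). Ebf2, a helix-loop-helix factor of early neuronal differentiation, stood at 10.30, 10.25, 9.36 and 9.43 in the wild-type and at 10.68, 10.48, 10.79 and 10.44 in the mutant. Its difference was 0.76 ± 0.22 (adjusted p = 0.104) and its second probe gave 0.76 with arrays that overlapped.

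St18, a relative of Myt1, differed by 0.40 ± 0.091 (SE, n = 4 per group; limma adjusted p = 0.0519) and Mfng, which modifies Notch receptors, by 0.48 ± 0.12 (adjusted p = 0.0757). The second Mfng probe gave 0.23 with arrays that overlapped, and the mean of both probes gave 0.35 (adjusted p = 0.155). Srrm4, a neuronal splicing regulator, differed by 0.40 ± 0.10 (adjusted p = 0.0790). Ebf3 and Dcx, the latter a microtubule protein of migrating young neurons, differed by 0.37 and 0.32 (adjusted p = 0.173 and 0.181), and the other Dcx probes gave 0.26 and 0.0014 with overlapping arrays. Within the wild-type group these genes did not move alike: Insm1 and Mfng were higher on replicates 3 and 4 than on replicates 1 and 2, whereas Ebf2, Ebf3 and Dcx were lower there. For both kinds the mutant arrays lay above both wild-type pairs, which follows from naming genes with separated arrays and is no further result. With the cell cycle level as a covariate, which itself separates mutant from wild-type arrays, the differences of Ebf2, Ebf3 and Dcx shrank to 0.20, 0.10 and 0.093. Those of Insm1 and Mfng grew to 1.01 and 0.76 and passed (limma adjusted p = 0.000939 and 0.00223). Separated arrays were counted for 9 of the 14 genes with wild-type replicates 3 and 4 left out (14.7% of all genes), for 10 with replicates 1 and 2 left out (20.1% of all genes) and for 5 with median scaling (2.98% of all genes), while the number called in these settings was 2 (2.37% of all genes called), 8 (13.6%) and 0 (2.66%).

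**Figure D4:**
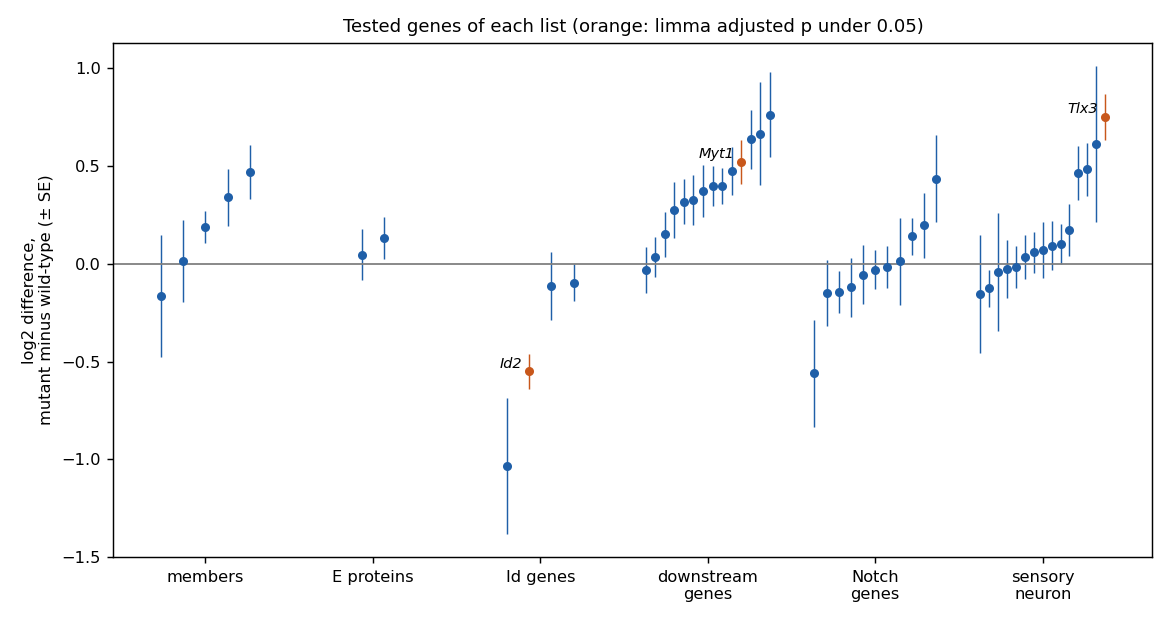
Log2 difference, mutant minus wild-type, with its SE, of each tested gene of 6 lists, ordered by size within a list. Orange points passed the test (limma adjusted p under 0.05): Id2 is lower, and Myt1 and Tlx3 are higher. Of the 14 downstream genes 13 are above 0, and the 4 Id genes are below 0.

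Among genes that restrain proneural factors, Id2 fell. Id proteins capture the E protein partners of proneural factors. Id2 stood at 9.14, 9.35, 9.13 and 9.35 in the wild-type and at 8.81, 8.72, 8.55 and 8.71 in the mutant, with no overlap. The difference was -0.55 ± 0.091 (SE, n = 4 per group; limma adjusted p = 0.0151), and a second, dimmer probe of Id2 gave -0.094. As the mean of its probes the difference was -0.32 and did not pass (adjusted p = 0.0692), and leaving out wild-type replicate 4 (adjusted p = 0.0532) or mutant replicate 2 (adjusted p = 0.0519) also ended the call.

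The other Id genes did not pass. Id4 stood at 9.95, 9.54, 8.12 and 8.78 in the wild-type and at 8.24, 7.73, 7.84 and 8.44 in the mutant. Its difference was -1.03 ± 0.35 (limma adjusted p = 0.157, n = 4 per group). It passed with wild-type replicates 3 and 4 left out (-1.68, adjusted p = 0.00572) or without replicate 3 alone (-1.36, adjusted p = 0.0450). Those were the wild-type arrays nearest the mutants, so the larger differences follow from that choice and are no separate support. The difference also passed with the cell cycle (-1.92, adjusted p = 0.00176) or erythroid level (-1.50, adjusted p = 0.0112) as a covariate. With wild-type replicates 1 and 2 left out it was -0.39 (adjusted p = 0.318). Id1 and Id3 differed by -0.11 and -0.096. So 1 of the 4 tested Id genes fell, against 1.11% of all genes, and the list's median was -0.33; the sign of Id1 turned with wild-type replicates 3 and 4 left out (0.20).

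The Notch pathway, which keeps neighbouring precursors undifferentiated, gave 0 calls among 11 tested genes of 16, by the unadjusted limma p also 0 under 0.05. The median was -0.029, with 4 positive and 7 negative differences, from -0.56 for Hey2 to 0.44 for Hes5 (limma adjusted p = 0.310 and 0.333). Hey1 and Hes6, a repressor induced by Notch and an opponent of Hes1, differed by -0.029 ± 0.098 and 0.20 ± 0.17 (limma adjusted p = 0.907 and 0.571, n = 4 per group). Hes6 passed with wild-type replicates 3 and 4 left out (0.52, adjusted p = 0.0427) and with the cell cycle level as a covariate (0.62, adjusted p = 0.0150). Replicates 3 and 4 were its highest wild-type arrays, so leaving them out raised the difference by that choice and is no separate support. The mean of the Hes6 probes gave 0.068 (adjusted p = 0.879), and the signs of both Hey1 and Hes6 depended on which arrays entered. The E proteins Tcf4 and Tcf12 differed by 0.13 and 0.048 with no call (0 of 2), and 0 of the 11 other tissue-restricted bHLH genes with a probe, which include Neurog3, Olig2 and Atoh1, reached the filter level on average. Of 15 tested sensory neuron markers 1 rose (against 1.4% of all genes) and 14 did not pass, with a median of 0.069. The gene that rose was Tlx3, a homeodomain factor of sensory neurons, by 0.75 ± 0.12 (limma adjusted p = 0.0108). Mutant arrays lay wholly above wild-type arrays for 3 of the 15, Tlx3, Elavl3 and Nefh, against 6.3% of all genes. Neural crest and progenitor markers gave 0 calls of 7 (median 0.027), and Sox2, a gene of precursors and glia, differed by 0.027.

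Of 9 tested macrophage markers 0 passed. Differences were positive for 9 of the 9, against 50.5% of all genes, with a median of 0.69, and mutant arrays lay wholly above wild-type arrays for 0. The summed intensity of these markers was 2925, 3657, 4710 and 1963 on mutant replicates 1 to 4, against 2048 to 2507 in the wild-type. Mutant replicates 1 to 3 were thus high for these markers and mutant replicate 4 was low. The mean level of the downstream genes, relative to each gene's mean, was 0.14 to 0.25 on the mutant arrays and -0.29 to -0.096 in the wild-type. The part of macrophage RNA in any difference was not tested.

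The genes nearest to each member were found by the root mean square difference of the gene-centred log2 values over the 8 arrays, given as a description. Neurog2, whose own SD over the arrays was 0.52, was followed most closely by Pgpep1 (0.13), the Wnt receptor gene Fzd10 (0.14), Igfbpl1 (0.14), the connexin gene Gja5 (0.16) and the Notch ligand gene Dll1 (0.18). Dll1 stood at 7.30, 7.40, 8.11 and 8.41 on wild-type replicates 1 to 4 and at 7.63 to 7.92 in the mutants. Its mutant arrays lay between the wild-type pairs, which its choice by nearness to Neurog2 implies, so Dll1 is no separate support. Its difference was 0.012 with all arrays, and -0.44 without wild-type replicates 1 and 2, past the threshold (limma adjusted p = 0.0457, with 13.6% of all genes called). Neurod4 (SD 0.34) was nearest to Ptbp1, a repressor of neuronal splicing, at 0.13, and then to Axin2, Cdc42ep4, Baz1a and Gpc3 at 0.13 each.

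Neurod1 (SD 0.32) was nearest to Sgsm2 and Ezr (0.12 each), Vsnl1 (0.13), Zfp157 and Snn (0.14 each). Of these, Ezr, a linker of actin to the cell membrane, and Snn passed, higher in the mutant by 0.41 and 0.47 (limma adjusted p = 0.0367 and 0.0365). Neurog1 (SD 0.29) was nearest to Poldip2, Tnrc18, Svil, Vcam1 and Anks1 (0.13 to 0.14), of which Anks1 passed. Neurod2, whose SD of 0.13 was below the 0.16 that is the median of all genes, was nearest to Zfp574, Tmc4, Stag3, Tollip and Abhd12 (0.037 to 0.050), and a profile this flat is close to those of many genes.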

How the data were processed

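Dorsal root ganglia RNA was read on 8 Illumina arrays. The deposited bead intensity (linear, lowest value 80.3, no background subtracted) came from BeadStudio per the submitters' processing notes, with no version or settings. The authors' deposited log2 table equals log2 and quantile normalization of these intensities (largest gap 5.0e-09). Having neither detection p-values nor control probes, intensities were corrected with normexp (offset 50), put on log2 and quantile normalized in limma 3.58.1 (R 4.3.3). Probes were named by Entrez identifier through the platform annotation and GRCm38.p6 symbols (23978 of 25697 probes). Features above the median of the 8-array mean, with the brightest probe per gene, numbered 9664 (8935 named genes). Each was fitted with lmFit and eBayes (mutant minus wild-type, two-sided, no covariate), Benjamini-Hochberg over all features. Errors are SEs; the number of arrays limits precision. On simulated data of 9664 features the fit recovered 73%, 93% and 98% of 1.5-fold, 2-fold and 3-fold changes. Of the calls 9.3%, 2.6% and 6.7% were false. The simulation held no litter effects and no pairs of alike arrays, as the wild-type group has.

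The members and all lists were chosen with earlier results of these data known. Named genes are all members, from each list up to 4 called genes or else the 2 brightest tested, and the 5 nearest genes per tested member; others are stated where they occur. Alternatives covered background, scaling, filter, probes, variance model, covariates, the replicate block and left-out arrays. The deleted kinase genes were not analysed here. Figures were drawn with matplotlib 3.10.9.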

Additional observations from a re-analysis of the deposited data

Results flagged for a closer look

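A gap test for 1 array far from the other 3 of its group marked 10 of 88 sets examined. Chance alone marks about 1 in 20 of independent sets not picked by their values. The sets here include genes named for their values and a sum that holds Dbx1 and Lhx1. The count of 10 can therefore not be set against that rate. On wild-type replicate 4 the summed intensity of spinal cord markers (3315, others 2589 to 2612), Dbx1 (7.74, others 6.15 to 6.42) and Lhx1 (6.88, others at most 6.14) stood apart, and this is the array with the highest Neurog2; the link was not tested. On wild-type replicate 3, Neurod2 was low at 6.99 (others 7.05 to 7.06) and St18 at 7.84 (others 8.14 to 8.16). On wild-type replicate 2, Id3 was low at 8.24 (others 8.47 to 8.51). In the mutant, Mfng (11.32, others 11.16 to 11.18) and Tcf12 (9.41, others 9.12 to 9.17) were high on replicate 2, Neurog3 on replicate 3 (6.41, others 5.98 to 6.04), and Hey1 was low on replicate 4 (11.61, others 11.85 to 11.86).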

How the results depend on the processing

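Neurod1, Neurod2, Neurog1 and Nhlh1 stayed positive in each alternative that gave them a value (22, 21, 21 and 20 settings). Neurod1 ran from 0.38 to 0.58 with adjusted p from 0.0370 to 0.261. Neurog1 ran from 0.19 to 0.54, Neurod2 from 0.14 to 0.23 and Nhlh1 from 0.091 to 0.41, with no call. The number of members called was 0, also without any single array, except without wild-type replicates 1 and 2. There 2 were called (Neurog2 at -0.81 and Neurod1 at 0.50), with 13.6% of all genes called. Neurog2 turned positive without wild-type replicates 3 and 4 (0.48) and with the erythroid (0.22) or cell cycle level (0.64) as a covariate, and ran from -0.40 to 0.13 when 1 array was left out. Neurod4 turned negative with median scaling (-0.085) and without wild-type replicates 1 and 2 (-0.31), and ran from -0.10 to 0.15 when 1 array was left out; Nhlh2 turned to 0.054 without wild-type replicates 1 and 2. Signs also turned for Dll1 with median scaling (-0.026) and without wild-type replicates 1 and 2 (-0.44), for Tcf12 in the same settings (-0.020 and -0.17), for Hes6 without wild-type replicates 1 and 2 (-0.13), for Hey1 with the cell cycle level (0.13), with the erythroid level (0.048) and without wild-type replicates 3 and 4 (0.090), and for Id1 in those settings (0.28, 0.11 and 0.20). With 1 array left out, Dll1 ran from -0.15 to 0.21, Tcf12 from -0.027 to 0.13, Hey1 from -0.090 to 0.032 and Id1 from -0.23 to 0.013. The 224 genes called became 341 with array weights, 366 with the cell cycle level, 1218 without wild-type replicates 1 and 2, and 67 to 200 with 1 array left out (128 and 89 when this was wild-type replicate 3 and 4, 67 and 79 when it was mutant replicate 1 and 2). They split into 125 higher and 99 lower, but 57 and 181 with median scaling. The downstream genes called (1) became 2 with no background correction, the authors' table, an intensity trend or without wild-type replicates 3 and 4, 3 with either covariate, 5 with array weights, 8 when wild-type replicates 1 and 2 were left out, 0 with median scaling, and 0 to 1 with 1 array left out; separated arrays were 8 to 9 with 1 array left out and 5 with median scaling. With the replicate block 82 genes and 0 downstream genes were called; Myt1, Id2 and Tlx3 lost their calls (adjusted p = 0.0937, 0.0597 and 0.0597). Equal numbers do not pair the samples: same-numbered arrays deviated from their group means with correlations of -0.28 to -0.051. Of the 5 nearest genes of each member, 2 to 5 stayed among the 5 nearest under the authors' table or median scaling. Nhlh1, Nhlh2, Neurog1, Neurog2 and Neurod2 have no value with the filter at the upper quartile. The cause of these changes was not tested beyond the arrays and genes each setting removes.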
